A study of Homo sapiens with 6 samples.

Results

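The genes of the TGF-beta, BMP and Wnt signalling pathways were examined in SK-MEL-28, an established human melanoma cell line. A list of 60 ligands, receptors, intracellular transducers, inhibitors and feedback targets was matched by gene symbol in the deposited count table, and all 60 were found among its 60504 genes. The list groups genes by pathway role, and it was drawn up with earlier results of these data known. RNA was measured in 3 libraries labelled EV, from cells given an empty vector plasmid and listed as the control genotype, and in 3 libraries labelled HDAC8, from cells given the HDAC8 plasmid. HDAC8 is a class I histone deacetylase. Both groups are the same cell line, transfected with a plasmid by a lipid reagent and then kept in hygromycin, so the introduced gene was the intended difference between them. The labels number 3 biological replicates in each group but do not describe separate transfections, and p-values therefore measure the spread between these libraries. RNA-seq data of other cells, and protein or phosphorylation levels of the pathway members, were not analysed here.

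Library totals lay between 20850021 and 29822903 counts. Levels are given as CPM, the counts of a gene scaled to the size of its library by TMM, which corrects for differences in composition. Levels of different genes are compared as CPM per kb of exon, except for ranks and medians stated in CPM, which do not correct for gene length. The detection floor was set at 3 counts, or 0.101 to 0.144 CPM, and covers counting error only. The introduced gene itself, HDAC8 (ENSG00000147099, chromosome X, 72329516 to 72573101), had 357, 337 and 289 counts in EV replicates 1 to 3 and 417, 308 and 312 in HDAC8 replicates 1 to 3. The groups overlapped, with a log2 fold change of -0.024 (SE 0.13, adjusted p = 0.924). Whether reads from the plasmid were counted on this gene was not stated in the sources used here, so groups are named by their labels, and each change is given for HDAC8-labelled relative to EV-labelled libraries. The 7 melanocyte lineage markers (MITF, SOX10, PMEL, MLANA, TYR, DCT and S100B) were all expressed, and their summed level was 6470 to 6860 CPM in the EV libraries and 7490 to 8020 CPM in the HDAC8 libraries. The rise of that sum came mostly from PMEL (4149 and 5254 CPM), and the markers did not move together: PMEL, TYR and SOX10 were higher, DCT (233 and 68.3 CPM, log2 fold change -1.77, adjusted p = 1.13e-09), S100B and MITF were lower, and MLANA was not called. Markers of other cell types summed to 40.5 to 43.9 CPM (EV) and 53.2 to 58.3 CPM (HDAC8) for the 5 fibroblast genes, nearly all from LUM with COL3A1 and DPT near 0, to 8.31 to 10.1 and 6.29 to 8.83 CPM for the 5 keratinocyte genes, nearly all from KRT10, and to 3.06 to 3.25 and 3.1 to 3.94 CPM for the 5 endothelial genes. The part of these markers in the results was not tested.

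TGF-beta, activin and BMP ligands are secreted dimers that bring together type I and type II serine/threonine kinase receptors. The activated type I receptor phosphorylates receptor-regulated SMAD proteins (SMAD2 and SMAD3 below TGF-beta and activin, and SMAD1, SMAD5 and SMAD9 below BMP), which join SMAD4 and enter the nucleus. Canonical Wnt ligands bind Frizzled receptors and the co-receptors LRP5 or LRP6, which spares beta-catenin (CTNNB1) from destruction by a complex containing APC and AXIN proteins, and beta-catenin then works with TCF/LEF factors on DNA. In melanocytes, Wnt signalling is known for its part in specifying the lineage from the neural crest, and LEF1 is a known partner of MITF. TGF-beta restrains proliferation of normal melanocytes.

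Of the 60 genes, 56 passed the filter on low counts and entered the quasi-likelihood test of edgeR. The 4 that did not pass were the ligands INHBB, NODAL and BMP4 and the Wnt antagonist DKK1, none of which exceeded 4 counts in any library. With p adjusted across all 16195 tested genes and a threshold of 0.05, 12 members (21.4% of those tested) were higher and 8 (14.3%) were lower in the HDAC8 libraries, beside 11.1% higher and 11.7% lower among all tested genes. In RNA from a whole culture, fewer cells expressing a gene and less RNA per cell cannot be told apart. With the fold threshold that the study's methods state, a log2 fold change of 0.58 or more in either direction, 3 members were higher (LEF1, AXIN2 and BMPR1B, 5.36%) and 3 were lower (ID3, SMAD9 and SFRP1, 5.36%), beside 4.07% and 3.45% of all tested genes. The 3 libraries of the groups did not overlap in CPM for 16 members that were higher and 16 that were lower, beside 18.7% and 19.4% of all tested genes. The median log2 fold change of the tested members was -0.02, beside 0.01 for all tested genes, and the median absolute log2 fold change was 0.22 beside 0.19. The members were well expressed, with a median level of 41.2 CPM beside 18.8 CPM for all tested genes. Without HDAC8 replicate 1, 5 members were lower past the fold threshold, since TGFB2 and FST joined them, beside 565 of 16705 tested genes. By pathway, 7 of 18 tested Wnt members were higher and 3 lower. In the BMP pathway 2 of 15 were higher and 2 lower, and in the TGF-beta and activin pathway 1 of 17 was higher and 3 lower. Of the 6 components shared by TGF-beta and BMP signalling, 2 were higher and none was lower. Whether the pathways differ from each other was not tested.

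**Figure D1:**
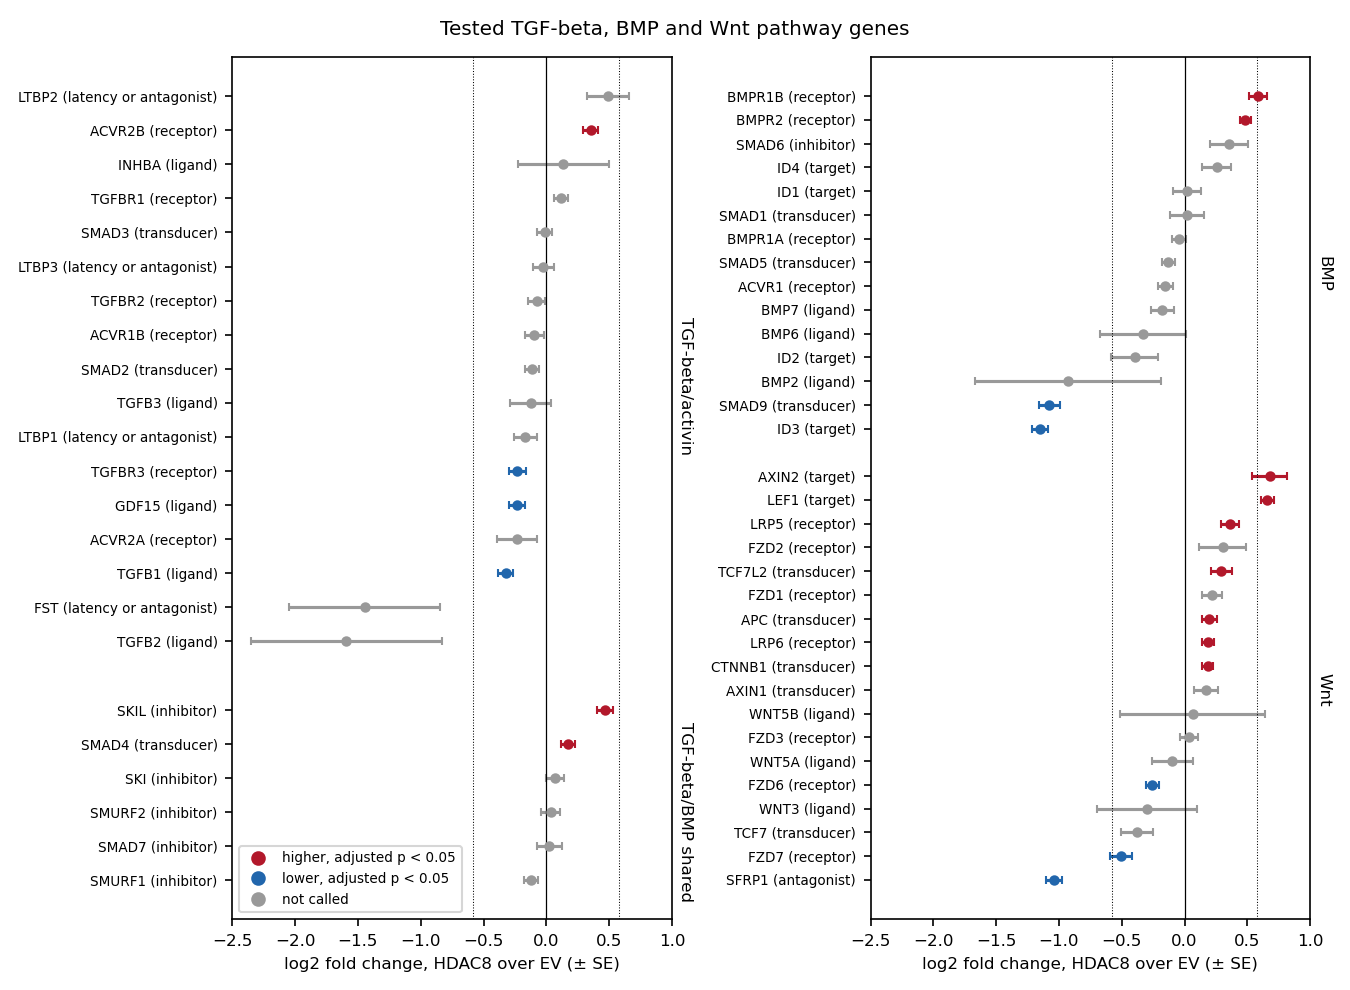
Log2 fold change (libraries labelled HDAC8 over those labelled EV, x axis) of the 56 tested pathway genes, each with its role, ordered within pathways. Points are edgeR estimates, bars are 1 SE, colours give the call at an adjusted p below 0.05, and dotted lines stand at ±0.58. Only LEF1, AXIN2 and BMPR1B among the called genes lie beyond the upper line, and only ID3, SMAD9 and SFRP1 beyond the lower one.

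The BMP branch held the lowest log2 fold changes among called members, in a target and a transducer, whereas 2 of its receptors were higher. The 250 bases before the start site of 3 of its genes are shown because these genes carry that contrast: ID3 and SMAD9, which fell, and BMPR2, which rose. The sequences are from RefSeq (GRCh38.p14) and run 5′ to 3′ on the strand of the gene. Capitals mark matches on either strand to 8 motifs: CAGAC and GTCTAGAC (SMAD elements), GGCGCC (a BMP-type GC box), CTTTGA and CTTTGT (TCF/LEF), TGACTCA (AP-1), and the E-boxes CACGTG and CATGTG. The ID3 window lies at chr1:23559502-23559751 (minus strand), the SMAD9 window at chr13:36920239-36920488 (minus strand), within an intron of a longer SMAD9 transcript in GENCODE 44, and the BMPR2 window at chr2:202376077-202376326 (plus strand), whose first 66 bases overlap an exon of a long noncoding RNA gene on the opposite strand.
ID3: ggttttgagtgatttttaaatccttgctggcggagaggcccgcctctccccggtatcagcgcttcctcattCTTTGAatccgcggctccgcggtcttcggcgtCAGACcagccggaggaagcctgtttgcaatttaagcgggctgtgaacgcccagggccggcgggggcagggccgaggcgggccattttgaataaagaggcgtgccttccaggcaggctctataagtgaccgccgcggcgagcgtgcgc
SMAD9: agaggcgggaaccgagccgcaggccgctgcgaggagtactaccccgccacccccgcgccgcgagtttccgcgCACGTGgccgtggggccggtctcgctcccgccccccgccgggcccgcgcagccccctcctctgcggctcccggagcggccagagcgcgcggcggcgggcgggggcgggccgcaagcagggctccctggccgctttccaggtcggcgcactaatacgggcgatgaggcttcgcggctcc
BMPR2: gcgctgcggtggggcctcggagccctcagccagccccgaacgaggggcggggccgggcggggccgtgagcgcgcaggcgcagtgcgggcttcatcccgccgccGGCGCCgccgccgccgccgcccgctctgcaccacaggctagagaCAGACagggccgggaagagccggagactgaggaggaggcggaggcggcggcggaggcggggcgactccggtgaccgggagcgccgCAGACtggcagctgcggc

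The ID3 window holds CTTTGA at position -179 and CAGAC at position -147 from the start site, the SMAD9 window holds CACGTG at position -178, and the BMPR2 window holds GGCGCC at position -147 and CAGAC at positions -103 and -18. RefSeq promoter windows of 300 bases (250 before and 50 after a start) were found for 50 of the 60 genes, 86 windows in all. Of these, 50% held CAGAC, beside 45.3% of all 35116 windows, and 23.3% held GGCGCC, beside 19.2%. For CTTTGT the shares were 23.3% and 16.1%, and for CTTTGA 8.14% and 12.9%. CACGTG was found in 9.3% and 7.26%, CATGTG in 6.98% and 11.1%, TGACTCA in 4.65% and 4.95%, and GTCTAGAC in 1.16% and 0.202%, the latter in 1 member window (SMAD6, at position -12). These matches are a description of the letters and were not tested. For AXIN2 and SFRP1 no sequence is shown.

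ID3 (ENSG00000117318, chromosome 1, 23557926 to 23559501), which encodes an inhibitor of basic helix-loop-helix transcription factors and is an immediate target of BMP signalling, had 80.2, 78.1 and 79.1 CPM in the EV libraries and 36.5, 37.8 and 32.9 CPM in the HDAC8 libraries. Every HDAC8 library lay far below every EV library. The level fell from 79.2 ± 1.06 to 35.7 ± 2.52 CPM (SD, n = 3), with a log2 fold change of -1.15 (SE 0.07, adjusted p = 1.56e-07). The other 3 ID genes, which encode related inhibitors, did not pass the test. ID1 had 17.1 and 17.3 CPM (EV and HDAC8 means), with a log2 fold change of 0.02 (SE 0.11), ID2 had 5.14 and 3.9 CPM with -0.40 (SE 0.19, adjusted p = 0.157), and ID4 had 23.9 and 28.5 CPM with 0.26 (SE 0.11, adjusted p = 0.136). ID4 passed the test, in the opposite direction to ID3, without HDAC8 replicate 3 (adjusted p = 0.0184). Per kb of exon, the 4 ID genes together summed to 75.3 ± 2.86 in the EV libraries and 47.1 ± 2.95 in the HDAC8 libraries. ID3 made up 70.4 ± 1.76% of that sum in the EV libraries and 50.7 ± 1.18% in the HDAC8 libraries, and ID1 made up 18.4 ± 1.55% and 29.9 ± 2.78%. Since a share depends on the other members of the family, these shares show unequal change within the family. The exact 2-sided permutation test gave p = 0.1 for the ID3 share and for the ID1 share. That is the smallest p that 3 against 3 libraries allow, so the test cannot pass 0.05.

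SMAD9 (ENSG00000120693, chromosome 13, 36844831 to 36920887), a receptor-regulated SMAD of the BMP branch, had 39.1, 37.7 and 39.7 CPM in the EV libraries and 20.2, 18 and 16.9 CPM in the HDAC8 libraries. The groups did not overlap, and the level fell from 38.8 ± 1.03 to 18.3 ± 1.67 CPM (SD, n = 3; log2 fold change -1.08, SE 0.08, adjusted p = 2.27e-06). SMAD5, which acts at the same step, had 124 and 113 CPM (log2 fold change -0.13, SE 0.05, adjusted p = 0.0912), and SMAD1 had 9.09 and 9.18 CPM (log2 fold change 0.02, SE 0.14, adjusted p = 0.943). SMAD5 was the main member of this trio per length, at 63.7 ± 0.383% of the sum in the EV libraries and 74.1 ± 2.38% in the HDAC8 libraries. The share of SMAD9 was 30.3 ± 0.538% and 18.2 ± 1.4% (exact permutation p = 0.1). SMAD6, the inhibitory SMAD of this branch, had 6.48 and 8.26 CPM and did not pass the test (log2 fold change 0.35, SE 0.15, adjusted p = 0.121).

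Among the BMP receptors, BMPR1B and BMPR2 rose and BMPR1A and ACVR1 did not pass the test. BMPR1B (ENSG00000138696, chromosome 4, 94757955 to 95158448), a type I receptor, had 31.5, 32.9 and 33 CPM in the EV libraries and 52.5, 47.6 and 45.7 CPM in the HDAC8 libraries, without overlap. Its log2 fold change of 0.58 (SE 0.07, adjusted p = 0.000116) lay just inside the fold threshold. BMPR1B remained past the adjusted p in every alternative, but its log2 fold change was 0.52 without HDAC8 replicate 1 and 0.56 without EV replicate 1, and it lay just below the fold threshold with DESeq2, with no filter on low counts and with 10 counts required in every library. BMPR2 (ENSG00000204217, chromosome 2, 202376327 to 202567751), the BMP type II receptor, had 215, 222 and 222 CPM in the EV libraries and 317, 307 and 298 CPM in the HDAC8 libraries. It rose 1.4-fold with little spread in either group (log2 fold change 0.48, SE 0.04, adjusted p = 1.03e-05), below the fold threshold. BMPR1A had 68.3 and 66.1 CPM (log2 fold change -0.05, SE 0.05, adjusted p = 0.605), and ACVR1 had 48.1 and 43.3 CPM (log2 fold change -0.15, SE 0.06, adjusted p = 0.11). ACVR1 passed the test as lower without HDAC8 replicate 3 (adjusted p = 0.0375). Per length, BMPR1B was 29.8 ± 0.84% of the 3 type I receptors in the EV libraries and 40.3 ± 2.04% in the HDAC8 libraries. BMPR1A was 40.8 ± 0.839% and 35.7 ± 0.851%, so BMPR1B had the largest mean share in the HDAC8 libraries. That order depends on the exon length, which merges the exons of all annotated transcripts. In CPM, BMPR1A (66.1) stayed above BMPR1B (48.6) in the HDAC8 libraries. The type II receptors BMPR2, ACVR2A and ACVR2B summed to 22.3 ± 0.637 CPM per kb in the EV libraries and 29.9 ± 0.764 in the HDAC8 libraries, of which BMPR2 made up 78.7 ± 0.762% and 82.2 ± 0.74%.

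Of the 4 listed BMP ligands, BMP7 had the highest level. BMP7 had 48, 38.4 and 38.7 CPM in the EV libraries and 34.1, 38 and 38.6 CPM in the HDAC8 libraries, which overlapped (log2 fold change -0.18, SE 0.09, adjusted p = 0.211). BMP6 had 2 and 1.57 CPM, and BMP2 ranged from 3 to 32 counts across the 6 libraries, with neither past the test. BMP4 had 0, 4 and 3 counts in the EV libraries and 0 in each HDAC8 library.

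**Figure D2:**
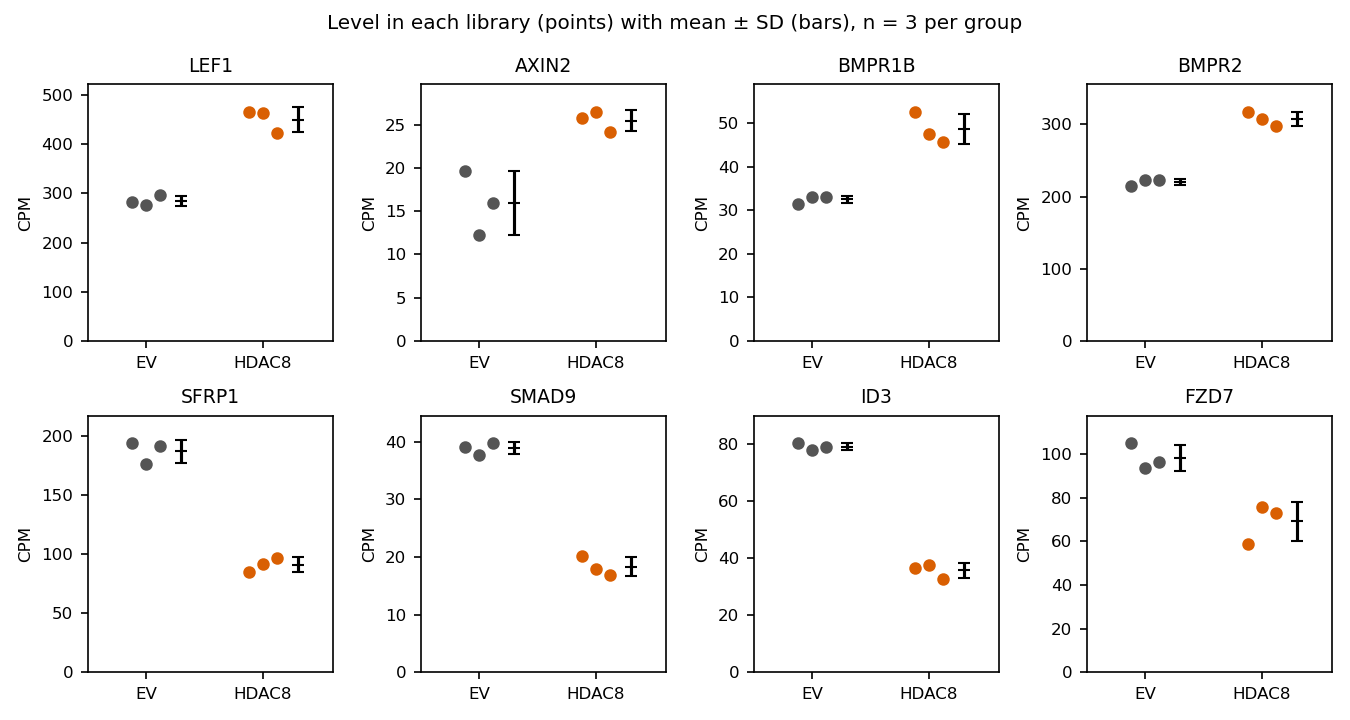
Level in CPM (y axis, from 0) of 8 called members in each library labelled EV (grey points) and HDAC8 (orange points). Horizontal bars are means and whiskers SD, with n = 3 per group. The groups do not overlap in any of the 8 panels, and the gap between them is narrowest relative to the spread for AXIN2 and FZD7.

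Among the listed Wnt genes, 3 of the 5 intracellular transducers (CTNNB1, APC and TCF7L2), both feedback targets and both LRP co-receptors rose. FZD6, FZD7 and the secreted antagonist SFRP1 fell. In all, 7 of 18 were higher and 3 lower, beside 11.1% and 11.7% of all tested genes. The calls of CTNNB1, APC, TCF7L2 and LRP6 were each lost in at least 1 alternative. Of 26 further Wnt transducers tested that were not on the list, 4 were higher (TCF7L1, TLE3, DAAM1 and AMER1). The 6 lower ones were DVL1, DVL2, DVL3, GSK3B, TLE2 and TNKS2, and DVL1 overlapped between the groups in CPM. The calls of DAAM1, DVL3, GSK3B and TLE2 held in every alternative. Those of TCF7L1, TLE3, AMER1, DVL1, DVL2 and TNKS2 were each lost in at least 1. LEF1 (ENSG00000138795, chromosome 4, 108047545 to 108168956), a TCF/LEF transcription factor and itself a known Wnt target, had 282, 277 and 297 CPM in the EV libraries and 465, 463 and 422 CPM in the HDAC8 libraries. All HDAC8 libraries lay above all EV libraries, and LEF1 rose 1.58-fold (log2 fold change 0.66, SE 0.05, adjusted p = 2.36e-06). Its antisense gene LEF1-AS1 held 1.57% as many counts as LEF1. LEF1 supplied most of the TCF/LEF level, with 90.9 ± 0.378% of the CPM per kb summed over LEF1, TCF7, TCF7L1 and TCF7L2 in the EV libraries and 93.1 ± 0.174% in the HDAC8 libraries, while that sum went from 58.6 ± 1.85 to 90.1 ± 4.9. TCF7L2 rose from 19.6 ± 0.987 to 24 ± 1.32 CPM (log2 fold change 0.29, SE 0.08, adjusted p = 0.0261), but lost its call without EV replicate 1 (adjusted p = 0.119), EV replicate 3 (0.0734) or HDAC8 replicate 2 (0.121), and with DESeq2 (0.0756). TCF7 had 12.2 and 9.33 CPM, and its difference in the other direction missed the threshold (log2 fold change -0.38, SE 0.13, adjusted p = 0.051). TCF7 passed it without EV replicate 3 (adjusted p = 0.0449).

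AXIN2 (ENSG00000168646, chromosome 17, 65528563 to 65561648), a scaffold of the destruction complex whose transcription is a widely used readout of beta-catenin activity, had 19.6, 12.2 and 15.9 CPM in the EV libraries and 25.8, 26.5 and 24.1 CPM in the HDAC8 libraries. The groups did not overlap, although the EV libraries were spread widely for their mean (15.9 ± 3.67 CPM). AXIN2 rose 1.6-fold (log2 fold change 0.68, SE 0.14, adjusted p = 0.00385), and without EV replicate 2, the lowest library, its log2 fold change was 0.52. AXIN1, its constitutive paralog, had 32.9 and 37 CPM (log2 fold change 0.17, SE 0.09, adjusted p = 0.222). CTNNB1, which encodes beta-catenin, had the highest CPM of the 60 genes and rose from 959 ± 47.7 to 1089 ± 25.8 CPM (log2 fold change 0.18, SE 0.04, adjusted p = 0.0113). That call was lost without EV replicate 3 (adjusted p = 0.0518) or HDAC8 replicate 2 (0.0548). APC, a scaffold of the destruction complex, rose from 146 ± 1.16 to 167 ± 13.4 CPM (log2 fold change 0.20, SE 0.06, adjusted p = 0.0329), with HDAC8 replicate 3 at 152 CPM close to the EV libraries. The APC call was lost in 5 of the 6 fits that leave out a library, with adjusted p from 0.097 to 0.143, and remained only without HDAC8 replicate 3.

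SFRP1 (ENSG00000104332, chromosome 8, 41261962 to 41309473), which encodes a secreted Frizzled-related protein that binds Wnt ligands, had 193, 176 and 191 CPM in the EV libraries and 84.5, 91.6 and 97 CPM in the HDAC8 libraries. The level was 2.05-fold lower in the HDAC8 libraries (log2 fold change -1.04, SE 0.06, adjusted p = 2.27e-07), and the groups were far apart. Of the Frizzled receptors on the list, FZD7 had 105, 93.6 and 96.3 CPM in the EV libraries and 59, 75.9 and 72.9 CPM in the HDAC8 libraries (log2 fold change -0.51, SE 0.09, adjusted p = 0.00132). FZD7 reached -0.58 without HDAC8 replicate 2. FZD6 fell from 115 ± 2.96 to 96.3 ± 0.729 CPM (log2 fold change -0.26, SE 0.05, adjusted p = 0.00254). The overlapping antisense gene BAALC-AS1 held 3.53% as many counts as FZD6. FZD1 had 42.6 and 49.6 CPM and did not pass the test (log2 fold change 0.22, SE 0.08, adjusted p = 0.0721), but passed it as higher with no filter on low counts (0.0456). FZD2 (5.59 and 6.92 CPM) and FZD3 (30.4 and 31.3 CPM) did not pass it. Per length, FZD6 and FZD7 were the main Frizzled transcripts in both groups. FZD6 made up 42.7 ± 0.726% of the 10 Frizzled genes in the EV libraries and 42.6 ± 2.18% in the HDAC8 libraries, and FZD7 made up 32.3 ± 1.11% and 27 ± 2.21%. FZD1 made up 9.3 ± 0.519% and 12.9 ± 0.125%, and the sum over the family was 66.3 ± 2.66 and 55.7 ± 2.89 CPM per kb.

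**Figure D3:**
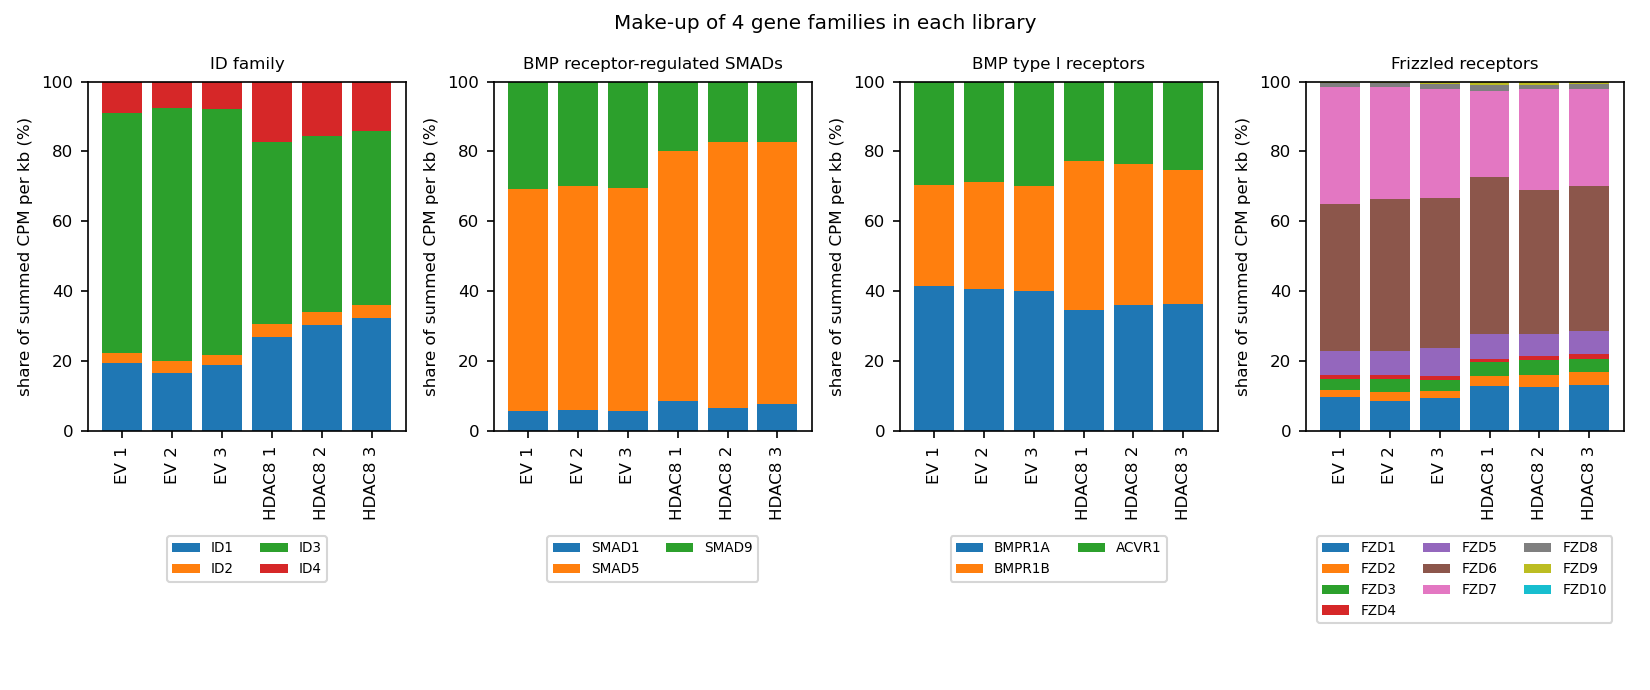
Share (percent, y axis) of each gene in the CPM per kb of exon summed over its family, for the 6 libraries (x axis). In the ID family ID3 goes from 70.4% to 50.7% on average, among the BMP receptor-regulated SMADs SMAD9 from 30.3% to 18.2%, and among the BMP type I receptors BMPR1B from 29.8% to 40.3%, while FZD6 keeps about the same share of the Frizzled receptors (42.7% and 42.6%).

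The co-receptor LRP5 rose from 36.7 ± 2.46 to 47.2 ± 1.49 CPM (log2 fold change 0.36, SE 0.07, adjusted p = 0.00276), and LRP6 from 140 ± 1.8 to 159 ± 2.21 CPM (log2 fold change 0.19, SE 0.04, adjusted p = 0.0102). The LRP6 call was lost without EV replicate 1 (adjusted p = 0.055). LRP6 made up 69.4 ± 1.4% of the pair per length in the EV libraries and 66.7 ± 0.401% in the HDAC8 libraries. The Wnt ligands on the list were expressed at low levels. WNT5A, a ligand best known for noncanonical signalling, had 9.63 and 8.97 CPM (log2 fold change -0.10, SE 0.16, adjusted p = 0.727), WNT3 had 1.86 and 1.51 CPM, and WNT5B had 4 to 15 counts in the 6 libraries, with none past the test. DKK1, an LRP antagonist, had at most 3 counts.

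In the TGF-beta and activin branch no member passed both the adjusted p and the fold threshold. TGFB1, the main TGF-beta ligand in these cells at 91 ± 0.644% of the TGF-beta level per length in the EV libraries, had 58.1, 54.3 and 57.9 CPM there and 45.3, 47.5 and 43.3 CPM in the HDAC8 libraries. The groups did not overlap, and the log2 fold change was -0.32 (SE 0.06, adjusted p = 0.00296). The annotation places HNRNPUL1 and CCDC97 on the opposite strand across part of TGFB1, with 526% and 51% as many counts as TGFB1 itself. The sources used here do not state whether counting used strand, and without strand these reads cannot be told apart, so the TGFB1 level is uncertain. TGFB3 had 8.32 and 7.67 CPM (log2 fold change -0.13, SE 0.16, adjusted p = 0.646). TGFB2 had 13, 29 and 11 counts in the EV libraries and 17, 2 and 1 in the HDAC8 libraries, and follistatin (FST), which traps activin, had 17, 20 and 27 counts and 19, 5 and 2. For both genes HDAC8 replicate 1 stood near the EV libraries and the other 2 HDAC8 libraries lay below them. With all libraries the log2 fold changes were -1.59 (SE 0.76) for TGFB2 and -1.44 (SE 0.60) for FST. Neither passed the test (adjusted p = 0.169 for TGFB2 and 0.113 for FST), and both passed it without HDAC8 replicate 1 (0.0217 and 0.0264). GDF15, a distant member of the family known as a stress-induced secreted factor, had the highest level per length of the 60 genes. It went from 335 ± 19.5 to 285 ± 24.8 CPM (log2 fold change -0.24, SE 0.07, adjusted p = 0.0224), a call that was lost without EV replicate 1 (adjusted p = 0.0804), EV replicate 3 (0.116) or HDAC8 replicate 1 (0.0524). The activin subunit INHBA had 1.23 and 1.35 CPM and did not pass the test.

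The latent TGF-beta binding proteins, which hold the ligand in the matrix, did not pass the test. LTBP3 was the most abundant per length and had 144 and 142 CPM, LTBP1 had 21.5 and 19.2 CPM, and LTBP2 had 5.06 and 7.14 CPM with a log2 fold change of 0.49 (SE 0.17, adjusted p = 0.0545). LTBP2 passed the threshold without HDAC8 replicate 1 (adjusted p = 0.0443). Of the 6 receptors of this branch, the activin type II receptor ACVR2B had 48.1, 46 and 45.4 CPM in the EV libraries and 56.9, 60.7 and 60.8 CPM in the HDAC8 libraries, without overlap (log2 fold change 0.35, SE 0.06, adjusted p = 0.00126). Its antisense gene ACVR2B-AS1 held 3.21% as many counts. The accessory receptor TGFBR3 (betaglycan) fell from 99 ± 7.59 to 84.3 ± 5.36 CPM (log2 fold change -0.23, SE 0.07, adjusted p = 0.0304), and this call was lost without EV replicate 1 (adjusted p = 0.149), HDAC8 replicate 1 (0.0847) or HDAC8 replicate 2 (0.085). The signalling receptors TGFBR1 (134 and 146 CPM), TGFBR2 (53 and 50.2 CPM), ACVR1B (43.3 and 40.5 CPM) and ACVR2A (11.6 and 9.83 CPM) did not pass the test, although TGFBR1 passed it as higher without HDAC8 replicate 3 (adjusted p = 0.0252). The transducers SMAD2 (127 and 117 CPM) and SMAD3 (64.7 and 64.1 CPM) did not pass it either, with log2 fold changes of -0.11 (SE 0.06, adjusted p = 0.175) and -0.01 (SE 0.06, adjusted p = 0.897).

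Among the components shared by TGF-beta and BMP signalling, SKIL, which encodes the SMAD-binding repressor SnoN, rose from 41 ± 2.5 to 56.6 ± 1.39 CPM (log2 fold change 0.47, SE 0.07, adjusted p = 0.000315). Its individual levels were 43.5, 41.1 and 38.5 CPM in the EV libraries and 56.3, 58.1 and 55.4 CPM in the HDAC8 libraries. Its paralog SKI had 149 and 157 CPM (log2 fold change 0.07, SE 0.07, adjusted p = 0.561). SMAD4, the common partner of receptor-regulated SMADs, had 84.4 ± 3.88 and 95.1 ± 1.8 CPM (log2 fold change 0.17, SE 0.05, adjusted p = 0.0401). SMAD4 lost its call in 8 of the 11 alternatives, among them every fit that left out a library except EV replicate 3, with adjusted p from 0.0546 to 0.167. The inhibitory SMAD7 (19.6 and 20 CPM) and the ubiquitin ligases SMURF1 (76.4 and 70.2 CPM) and SMURF2 (28.4 and 29.1 CPM) did not pass the test.

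Another 179 genes of the same pathways were listed by role from general knowledge, though with earlier results of these data known, and 113 of them could be tested. Of these, 15 (13.3%) were higher and 29 (25.7%) were lower, beside 11.1% and 11.7% of all tested genes, and 5 were higher and 8 lower past the fold threshold (4.42% and 7.08%, beside 4.07% and 3.45%). The count of higher genes fell to 7 without EV replicate 2, and to 9 without EV replicate 1 or without HDAC8 replicate 2. Calls over all tested genes fell in the same fits, to 1377 higher of 16840, 1270 of 16937 and 1306 of 16953, from 1790 of 16195. The highest level in CPM among them was that of FN1, which encodes the matrix protein fibronectin, a known TGF-beta target. FN1 had 7533, 7379 and 7544 CPM in the EV libraries and 2828, 2909 and 2848 CPM in the HDAC8 libraries (log2 fold change -1.39, SE 0.03, adjusted p = 1.41e-10). CDKN1A, a cell cycle inhibitor that TGF-beta and p53 induce, fell from 22.2 ± 2.02 to 10 ± 1.97 CPM (log2 fold change -1.14, adjusted p = 8.71e-05). TGFBI, a matrix protein named for its induction by TGF-beta, moved the other way from 0.755 ± 0.305 to 1.9 ± 0.15 CPM (log2 fold change 1.32, adjusted p = 0.0319). The TGFBI call was lost without any of the libraries except EV replicate 3 (adjusted p from 0.0669 to 0.0899). In all, 16 further TGF-beta targets were tested, of which 2 were higher and 3 lower. ACVR1C, the nodal type I receptor ALK7, rose from 4.15 ± 0.78 to 7.34 ± 0.797 CPM (log2 fold change 0.83, adjusted p = 0.0078). FBN1, the microfibril protein to which latent TGF-beta complexes bind, rose from 2.34 ± 0.547 to 4.07 ± 0.607 CPM (log2 fold change 0.79, adjusted p = 0.044), a call lost without EV replicate 1, EV replicate 2, HDAC8 replicate 2 or HDAC8 replicate 3 (adjusted p from 0.0851 to 0.13).

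The small groups below stand beside 11.1% higher and 11.7% lower of all tested genes, and 13.3% and 25.7% of the further genes tested. Whether any group differs from these shares was not tested. Of the 5 further BMP targets, HEY1 and DLX5 fell and the other 3 did not pass the test. HEY1, a transcriptional repressor also induced by Notch, had 201, 204 and 218 CPM in the EV libraries and 98.7, 106 and 105 CPM in the HDAC8 libraries (log2 fold change -1.01, SE 0.05, adjusted p = 7.99e-08). DLX5 went from 1.85 ± 0.247 to 0.769 ± 0.222 CPM (log2 fold change -1.28, adjusted p = 0.0295). That call remained without HDAC8 replicate 2 but was lost in the other fits that left out a library (adjusted p from 0.0508 to 0.122). The DLX5 call was also lost with the replicate number as a block (adjusted p = 0.0642). Of the 5 further Wnt antagonists tested, NOTUM, APCDD1 and KREMEN2 fell and none rose. NOTUM, an enzyme that removes the lipid from Wnt ligands, fell from 5.43 ± 0.234 to 2.33 ± 0.472 CPM (log2 fold change -1.22, adjusted p = 0.00189). APCDD1, a membrane protein that binds Wnt and LRP5, fell from 66.8 ± 3.01 to 38.1 ± 1.7 CPM (log2 fold change -0.81, adjusted p = 2.85e-06). Of the 6 further Wnt targets tested, RNF43, CD44 and TNFRSF19 were called lower and none was called higher, unlike LEF1 and AXIN2. NKD1 had 11.9 and 14.9 CPM and was not called (log2 fold change 0.32, SE 0.12, adjusted p = 0.0882). Every HDAC8 library lay above every EV library for NKD1. RNF43, a ubiquitin ligase that removes Frizzled receptors from the membrane, fell from 68.5 ± 4.8 to 35.8 ± 3.4 CPM (log2 fold change -0.93, adjusted p = 6.23e-06). LGR4, an R-spondin receptor that counters RNF43, rose from 13.1 ± 1.23 to 21 ± 1.71 CPM (log2 fold change 0.68, adjusted p = 0.00059). KREMEN2 had 10.4 and 7.58 CPM (adjusted p = 0.0278), and its call was lost without EV replicate 1, EV replicate 3 or HDAC8 replicate 1 (adjusted p from 0.0603 to 0.134).

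**Figure D4:**
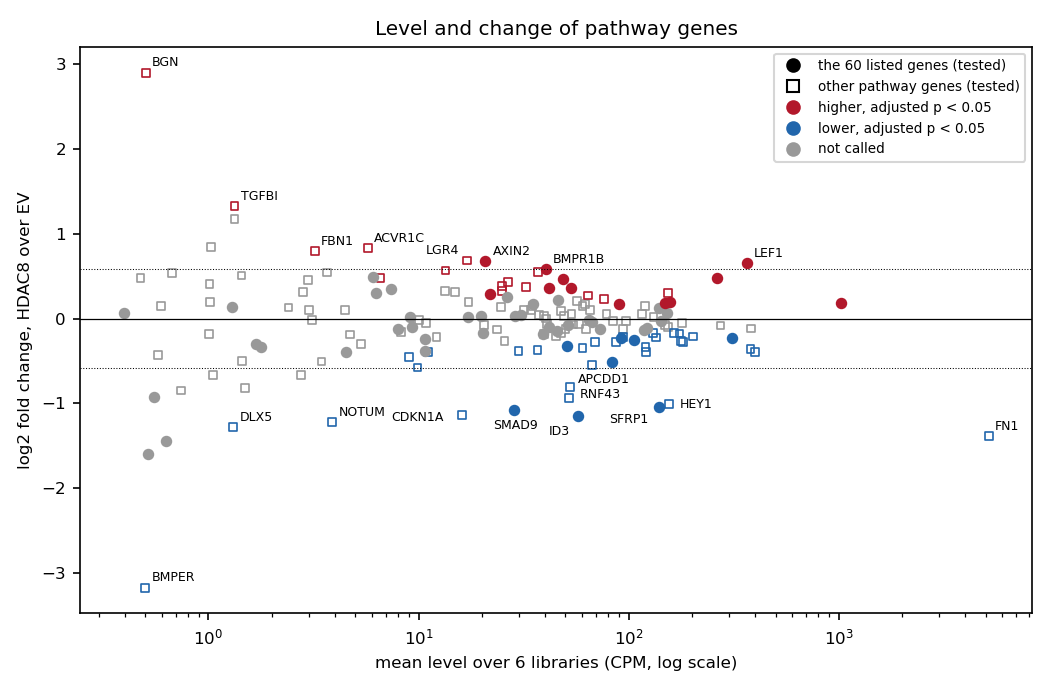
Mean level over the 6 libraries (CPM, log x axis) against the log2 fold change (libraries labelled HDAC8 over EV, y axis). Filled circles are the 56 tested members and open squares the 113 other tested pathway genes. Colours give the call, genes past both the adjusted p and the fold threshold are named, and dotted lines stand at ±0.58. Named genes above 10 CPM lie between -1.39 (FN1) and 0.68 (LGR4), and the widest log2 fold changes, BGN and BMPER, belong to genes below 1 CPM.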

How the data were processed

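The table that the authors deposited holds estimated counts for each Ensembl gene in 6 libraries, not normalized. According to the study's methods and the submitters' processing notes, reads were trimmed with Trimmomatic, aligned with STAR and quantified with RSEM (build GRCh38), and the annotation release and the use of strand are not given in the sources used here. The labels and the methods name different RNA and library kits. A second deposited table holds fold changes and p-values of the authors' own comparison and was not used.

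Counts were rounded (12 of the 60 members had values that were not whole, among them SMAD4, APC, TCF7L2 and LEF1) and all 6 libraries were fitted with edgeR 4.0.16 under R 4.3.3, using filterByExpr, TMM, glmQLFit and glmQLFTest without a block, with Benjamini-Hochberg adjustment over 16195 genes. The SE was obtained by dividing the size of the log2 fold change by the square root of F. Thresholds were an adjusted p of 0.05 and a log2 fold change of 0.58. Family shares were compared with exact permutation tests (scipy 1.17.1). Gene positions and exon lengths, merged over all annotated transcripts of a gene, are from GENCODE 44, which matched 56558 of 60504 identifiers. Alternatives were upper-quartile normalization, DESeq2 1.42.0, no filter on low counts, at least 10 counts in every library, unadjusted p, the replicate number as a block, and each library left out.

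The members and lists were chosen with earlier results of these data known. The text names every member past the adjusted p, gives every library's value for those also past the fold threshold, and names other pathway genes that passed both thresholds and averaged 1 CPM or more. Other values of single libraries, paralogs and genes of small groups were added where a role is described. Library totals were 20850021 to 29822903 counts. A list of blood cell markers is not reported here.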

Additional observations from a re-analysis of the deposited data

How the results depend on the processing

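Of the 20 members called, 13 kept direction and call under each of the 11 alternatives tried for a single gene, and 7 (GDF15, TGFBR3, SMAD4, LRP6, CTNNB1, APC and TCF7L2) lost the call under at least 1. With the replicate block, 10 members were higher and 7 lower, beside 1496 and 1587 of all 16195 tested genes. Past the fold threshold were 2 and 3 members, beside 601 and 497 of all tested genes. TGFBR3, SMAD4 and APC lost their calls, BMPR1B fell just below the fold threshold, and the median log2 fold change of the members was -0.0221. Same-numbered libraries did not deviate together (correlations of -0.057, -0.125 and -0.0508 over 14150 genes). With 3 libraries per group, these correlations cannot decide whether equal numbers share a preparation. With unadjusted p, 13 members were lower, beside 17.1% of all tested genes. The median log2 fold change of the members was -0.019 as reported, -0.00388 with DESeq2, -0.00578 with no filter and -0.00133 when 10 counts were required in every library. In the fits that left out a replicate, 8 to 13 members were higher, 6 to 9 lower, 2 to 3 higher and 3 to 5 lower past the fold threshold, 7 to 13 other pathway genes were higher and 21 to 30 lower, and the median log2 fold change lay between -0.0563 and -0.00688. Over all genes, 16676 to 16953 were tested in these fits, with 1270 to 1999 higher and 1289 to 2119 lower. Past the fold threshold, 560 to 661 of all tested genes were higher and 456 to 606 lower.

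The log2 fold changes that turned sign when a replicate was left out belonged to genes without a call. Their ranges were -0.0179 to 0.0626 for FZD3, -0.158 to 0.0797 for HDAC8, -0.0766 to 0.0905 for ID1, -0.0551 to 0.324 for INHBA, -0.129 to 0.0692 for LTBP3, -0.102 to 0.0906 for SMAD1, -0.0575 to 0.00744 for SMAD3, -0.0395 to 0.116 for SMAD7, -0.00522 to 0.0731 for SMURF2, -0.25 to 0.0115 for TGFB3, -0.674 to 0.0225 for WNT3, -0.226 to 0.00707 for WNT5A and -0.319 to 0.398 for WNT5B. The cause was not tested. Depth limits the low genes most, since INHBB, NODAL, BMP4 and DKK1 could not be tested and TGFB2, FST, BMP2 and WNT5B rest on few counts.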
